A study of Homo sapiens with 25 samples.

Results

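The mitochondrial genome holds 13 protein-coding genes, and the 6 described here are those whose proteins belong to complexes III, IV and V of oxidative phosphorylation. They are MT-CYB of complex III, MT-CO1, MT-CO2 and MT-CO3 of complex IV, and MT-ATP6 and MT-ATP8 of complex V. They were chosen by gene identity, as every mitochondrial mRNA of these complexes, among 20044 protein-coding genes in the count files. The group was put together with its levels per genotype and treatment already in view, so levels and ratios to the parental cells are given as a description, without a test. The tests between lines and between treatments below use those same levels. Their calls describe each gene among all genes tested, and the counts called are no independent support for the group. All 6 passed the filter on low counts and are among the 8734 genes tested.

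The libraries are RIP-seq of HCT116 human colorectal carcinoma cells, in which RNA bound to mCherry-IGF2BP1 was captured with beads that hold red fluorescent proteins. All 4 engineered lines carried knockouts of IGF2BP2 and of IGF2BP3 and a Tet-OsTIR1-PURO insert, and expressed 1 form of the fusion protein: wild-type, S181E, Y396E or RQ. S181E and Y396E place a glutamate at a phosphorylation site in a disordered linker, and RQ replaces arginines of the first linker with glutamines. Each line was a population sorted in a narrow mCherry gate, grown as separate dishes, and received PBS as control or 500 µM sodium arsenite for 2 h. There were 3 libraries per line and treatment, except for RQ in arsenite with 2. Parental HCT116 cells, which lack the fusion protein and whose label names neither a knockout nor an insert, gave 1 library per treatment, so that differences between parental and engineered cells have no replicate check and also cover the other changes to the lines. RNA-Seq libraries were not analysed here, and the values are amounts of RNA recovered, not amounts bound per RNA present. In bulk lysates, fewer cells that hold an RNA and less of that RNA per cell cannot be told apart.

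Total counts per mCherry library ranged from 22246381 to 60273548. The parental arsenite library held 18942497 counts and the parental control library 1238013. All 6 epithelial markers examined had counts in every library, from 28.7 CPM for CDH1 upwards in the mCherry libraries, and of 6 leukocyte, fibroblast and endothelial markers PTPRC and COL1A2 were listed at 0 in all 25 libraries. Of the other 4, the collagen COL1A1 stood at 1.58 to 13.4 CPM in the mCherry libraries and at 32.8 CPM in parental arsenite, PECAM1 at up to 1.42 CPM and at 24.3 CPM in parental control, CDH5 at up to 0.752 CPM and CD3E at no more than 1 count. IGF2BP1 had 0 counts in both parental libraries and 37.2 to 123 CPM in the mCherry libraries. Its mean was 66.4 CPM in wild-type, 66.3 in S181E, 93.0 in Y396E and 111 in RQ control libraries, and 40.1, 41.4, 52.1 and 80.6 CPM in arsenite. The part of these IGF2BP1 levels in the results below was not tested. IGF2BP2 and IGF2BP3 counts in the knockout lines overlapped or exceeded those of parental cells, with 131 to 294 CPM of IGF2BP2 against 111 and 145, and 147 to 429 CPM of IGF2BP3 against 16.2 and 135. Gene counts over all exons do not check a small deletion or insertion made by Cas9.

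Complex III passes electrons from ubiquinol to cytochrome c and pumps protons, complex IV passes them on to oxygen, and complex V lets protons return and makes ATP. Most subunits of these complexes are encoded in the nucleus, while their most hydrophobic core subunits are made inside mitochondria. There, long transcripts of each strand are cut, mostly at tRNAs, into mRNAs that receive short poly(A) tails and are translated by mitochondrial ribosomes. IGF2BP1 is known as a cytoplasmic protein that binds nuclear-encoded mRNAs through KH and RRM domains.

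All 6 genes lie on the plus strand of chromosome M in hg38, each as a single exon with no intron and with next to no untranslated sequence. MT-CO1, which encodes the catalytic subunit of complex IV, spans chrM:5904-7445 (1542 bases). MT-CO2, whose protein takes electrons from cytochrome c, spans chrM:7586-8269 (684 bases). MT-ATP8, a small subunit of the membrane part of complex V, spans chrM:8366-8572 (207 bases). MT-ATP6, which forms the proton path of complex V, spans chrM:8527-9207 (681 bases). MT-CO3, the third core subunit of complex IV, spans chrM:9207-9990 (784 bases). MT-CYB, the cytochrome b that holds the quinone sites of complex III, lies apart from the others at chrM:14747-15887 (1141 bases). The first 24 bases of the complex IV and V genes are shown to let these mRNAs be told apart, with the start codon in capitals:
MT-CO1: ATGttcgccgaccgttgactattc
MT-CO2: ATGgcacatgcagcgcaagtaggt
MT-CO3: ATGacccaccaatcacatgcctat
MT-ATP6: ATGaacgaaaatctgttcgcttca
MT-ATP8: ATGccccaactaaatactaccgta

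The last 24 bases show how the reading frames end, with the bases of the last codon, complete or not, in capitals:
MT-CYB: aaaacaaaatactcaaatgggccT
MT-CO1: gaacccgtatacataaaatctAGA
MT-CO2: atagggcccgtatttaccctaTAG
MT-CO3: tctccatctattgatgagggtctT
MT-ATP6: ctctacctgcacgacaacacaTAA
MT-ATP8: cattcattgcccccacaatccTAG
MT-CYB and MT-CO3 end 1 base into a codon, a T that the poly(A) tail completes to a stop codon, while MT-CO2, MT-ATP6 and MT-ATP8 end in a whole stop codon. MT-CO1 ends in AGA in this annotation.

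MT-ATP8 and MT-ATP6 are translated from 1 bicistronic mRNA in different reading frames, and this bears on their counts. Their shared 46 bases at chrM:8527-8572 run from the start codon of MT-ATP6 to the stop codon of MT-ATP8, both in capitals:
MT-ATP8 and MT-ATP6 overlap: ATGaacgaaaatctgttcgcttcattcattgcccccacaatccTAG
At the other end, MT-ATP6 shares 1 base with MT-CO3, in capitals within chrM:9195-9219:
MT-ATP6 and MT-CO3 junction: cgacaacacataAtgacccaccaat
Reads that touch more than 1 gene were not counted by the authors' settings. Of the 108 positions at which a 100-base read can lie within MT-ATP8, 46 (42.6%) touch MT-ATP6. For MT-ATP6 this holds for 47 of 582 positions (8.08%) and for MT-CO3 for 1 of 685. The level of MT-ATP8 is therefore a count over part of a very short gene, and its value beside MT-ATP6 is not a ratio of proteins or of molecules.

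Nuclear copies of mitochondrial DNA take reads in the same way, since reads that match several places equally well were left out. Of the 100-base windows of MT-CO1, 402 of 1443 (27.9%) occur without a mismatch elsewhere in hg38, in MT-ATP6 69 of 582 (11.9%), in MT-CO3 32 of 685 (4.67%) and in MT-CO2 14 of 585 (2.39%), all on chromosome 1. No such window was found for MT-CYB and MT-ATP8. MTATP6P1, the copy of MT-ATP6 at chr1:633696-634376, held 13666 to 67358 counts per mCherry library, which is 16.4 to 18.9% of the sum of the copy and MT-ATP6, against 15.6 and 15.4% in the parental control and arsenite libraries. MTCO1P12, the copy of MT-CO1, held 0.138 to 0.212% of its sum with MT-CO1. Adding each copy to its gene changed no count of the 6 mRNAs called in any comparison.

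IGF2BP proteins are known for CA-rich elements and for m6A-modified RNA, so the sense strand was searched for GGACT, a form of the m6A consensus, and for ACACCC. These letters do not overlap each other in any of the 6 genes. GGACT occurs once each in MT-CYB, MT-CO1, MT-CO2, MT-CO3 and MT-ATP6 and not in MT-ATP8. Of stretches of the same length from the middle of nuclear transcripts of tested genes, 66.2% hold it at the length of MT-CYB, 75.6% at that of MT-CO1, 48.6% at that of MT-CO2, 52.7% at that of MT-CO3, 48.5% at that of MT-ATP6 and 18.2% at that of MT-ATP8. ACACCC occurs once each in MT-CYB, MT-CO1 and MT-ATP6, where 23.7, 30.0 and 14.9% of nuclear stretches hold it, and not in the other 3. The matches in MT-CYB, which differed most between lines in arsenite, are shown as an example with the motif in capitals:
MT-CYB chrM:14878-14902: aatcaccacaGGACTattcctagcc
MT-CYB chrM:15524-15549: aaccccttaaACACCCctccccacat
A match of letters is a description and not a binding site.

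The 6 mRNAs made up 5.83 to 13.3% of all protein-coding counts in an mCherry library. Their share was 11.5 ± 1.57% (SD, n = 3) in control and 12.3 ± 0.682% (n = 3) in arsenite libraries of wild-type. In control libraries RQ followed with 10.5%, S181E with 9.18% and Y396E with 7.52%, and in arsenite with 11.3, 10.0 and 9.32% in the same order. The parental libraries held 2.40% in control and 0.694% in arsenite. Within the mCherry libraries the 6 took 61.1 to 73.3% of all mitochondrial mRNA counts.

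Levels are given as CPM, protein-coding counts scaled by TMM to a common library size, with replicates 1, 2 and 3 in order. MT-CYB stood at 27808, 31588 and 42863 CPM in wild-type control libraries, at 19364, 17086 and 25423 in S181E, at 16976, 11499 and 19846 in Y396E and at 25472, 26349 and 34689 in RQ, against 2570 CPM in the parental control library. In arsenite it stood at 31224, 35268 and 34729 CPM in wild-type, at 20625, 18466 and 19593 in S181E, at 14737, 19573 and 16870 in Y396E, and at 29143 and 28312 in RQ, against 822 CPM in the parental library. In both treatments every S181E and Y396E library lay below every wild-type library, and every mCherry library lay far above the parental one.

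MT-CO1 had the highest CPM of the 6. Its control levels were 37803, 40953 and 49983 CPM in wild-type, 32697, 29484 and 41325 in S181E, 29964, 20120 and 32763 in Y396E, and 35655, 36334 and 43249 in RQ, with 4602 CPM in parental cells. In arsenite they were 46499, 52723 and 47504 CPM in wild-type, 44248, 38359 and 40624 in S181E, 34873, 39414 and 36307 in Y396E, and 40788 and 41373 in RQ, with 2116 CPM in parental cells. Control libraries of S181E overlapped those of wild-type, while those of Y396E lay below.

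MT-CO2 stood at 13340, 14258 and 16647 CPM in wild-type, at 11304, 9865 and 10924 in S181E, at 8740, 6307 and 7881 in Y396E, and at 12021, 11247 and 14794 in RQ control libraries, and at 1081 CPM in parental cells. After arsenite it stood at 18595, 20092 and 17158 CPM in wild-type, 13667, 12107 and 11979 in S181E, 10688, 12127 and 10849 in Y396E, 18048 and 18120 in RQ, and 672 in parental cells. Within each engineered line every arsenite library lay above every control library of MT-CO2, the reverse of the order in parental cells.

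MT-CO3 levels in control libraries were 27496, 29311 and 37634 CPM in wild-type, 19941, 17685 and 24345 in S181E, 16039, 10709 and 17689 in Y396E, and 23670, 23668 and 30977 in RQ, against 2499 in parental cells. In arsenite libraries they were 24434, 26644 and 26338 CPM in wild-type, 19530, 16947 and 18282 in S181E, 14290, 15828 and 15240 in Y396E, 21760 and 21134 in RQ, and 796 in parental cells. The wild-type arsenite libraries lay below the wild-type control libraries, which was not so for the other complex IV mRNAs.

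MT-ATP6 levels were 8437, 9904 and 15253 CPM in wild-type, 7148, 5877 and 11239 in S181E, 5516, 3700 and 7752 in Y396E and 6994, 6418 and 12158 in RQ control libraries, with 1214 in parental cells. In arsenite they were 11116, 13822 and 12490 CPM in wild-type, 10497, 9331 and 10783 in S181E, 6972, 9256 and 8970 in Y396E, 10634 and 10409 in RQ and 355 in parental cells. MT-ATP8 was the lowest, at 263, 366 and 378 CPM in wild-type, 275, 251 and 388 in S181E, 201, 152 and 277 in Y396E and 277, 248 and 336 in RQ control libraries, and at 70.9 in parental cells. Its arsenite levels were 398, 471 and 343 CPM in wild-type, 452, 325 and 358 in S181E, 250, 348 and 259 in Y396E, 359 and 311 in RQ and 24.7 in parental cells. Replicate 3 was the highest control library of MT-CYB, MT-CO1, MT-CO3, MT-ATP6 and MT-ATP8 in every engineered line, and the spread between control replicates of MT-ATP6 was wider than that of MT-CO2.

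**Figure D1:**
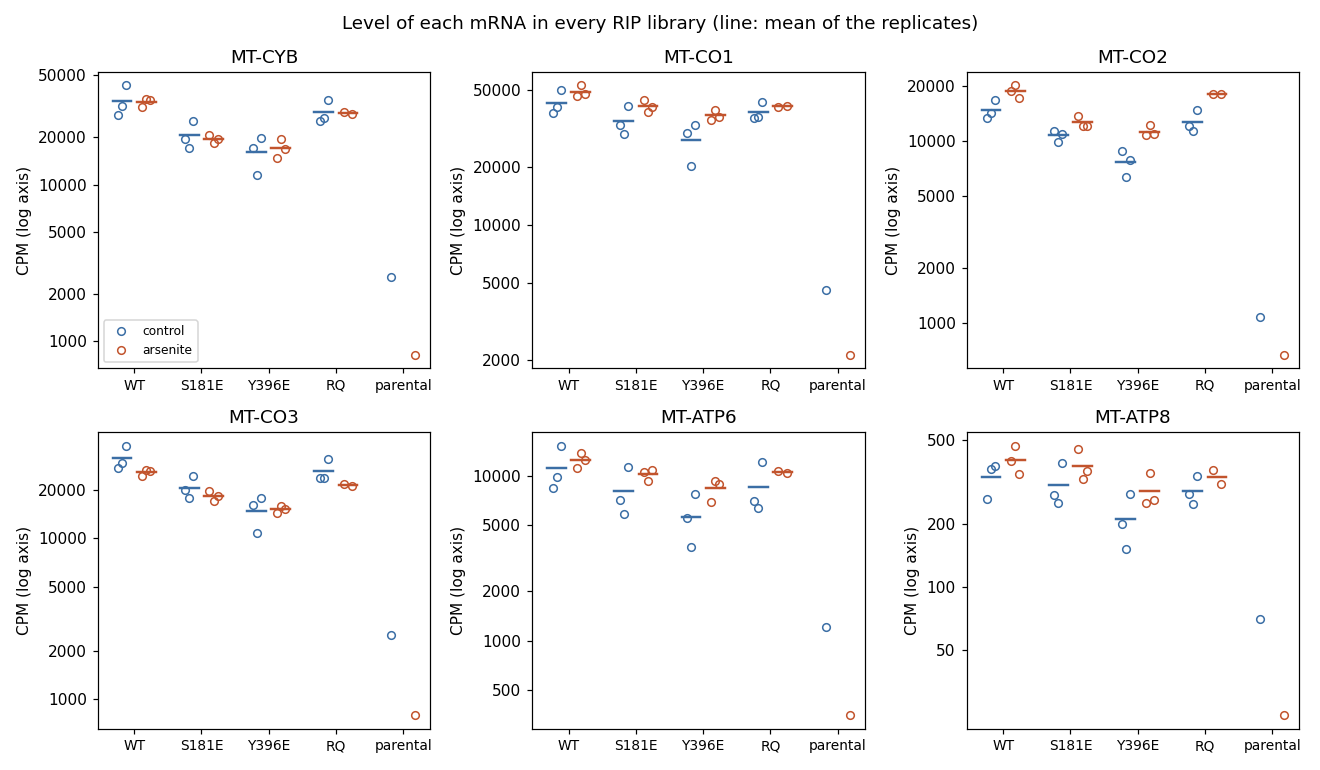
Level of each of the 6 mRNAs in every library in CPM on a log axis, by line and treatment. Open points are libraries and lines are means of 2 or 3 replicates. All mCherry libraries sit above both parental libraries, and within the mCherry libraries S181E and Y396E points sit lowest for MT-CYB, with Y396E between 11499 and 19846 CPM.

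Levels of different mRNAs were compared per kilobase of gene (CPM per kb). In wild-type control libraries MT-CO3 stood highest with 40154 ± 6895 CPM per kb (SD, n = 3), followed by MT-CYB with 29874 ± 6865 and MT-CO1 with 27830 ± 4099.9. Neighbours among these 3 overlapped in their replicates. MT-CO2 with 21562 ± 2496 CPM per kb lay below MT-CO1 without overlap and overlapped with MT-ATP6 at 16443 ± 5268. MT-ATP8 lay below all with 1620 ± 305 CPM per kb. In wild-type arsenite libraries the order was MT-CO3 with 32915, MT-CO1 with 31718, MT-CYB with 29571 and MT-CO2 with 27215 CPM per kb, each overlapping the next, then MT-ATP6 with 18320 and MT-ATP8 with 1951, both without overlap. In Y396E libraries MT-CO1 stood above MT-CYB in both treatments, with 17909 against 14117 CPM per kb in control and 23907 against 14951 in arsenite libraries.

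Each of the 6 mRNAs had a lower level in the parental library than in any mCherry library of the same treatment, by a factor that differed between mRNAs and lines. In control libraries the mean wild-type CPM was 13.3 ± 3.05 times the parental value for MT-CYB, 9.33 ± 1.37 times for MT-CO1, 13.6 ± 1.58 times for MT-CO2, 12.6 ± 2.16 times for MT-CO3, 9.23 ± 2.96 times for MT-ATP6 and 4.73 ± 0.891 times for MT-ATP8 (SD over 3 wild-type libraries). The MT-ATP8 value rests on 105 parental counts. In Y396E control libraries MT-ATP8 stood at 2.96 times the parental value (2.14 to 3.91), and at 1.55 times by total counts. The former ratio was exceeded by 17.7% of the 5085 tested genes with at least 3 parental counts. The median of the 6 ratios was 10.96 in wild-type, 9.40 in RQ, 7.76 in S181E and 5.96 in Y396E, beside a median of 1.02 over 5085 tested genes with at least 3 parental counts in wild-type. Between 2.01% (MT-CO2) and 9.64% (MT-ATP8) of those genes had a higher ratio than the mRNA named. Genes with fewer parental counts were left out, which removes low parental levels and so high ratios. These shares and this median therefore do not describe all 8734 genes tested. They are also not comparable with those in arsenite, which cover 8700 genes.

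In arsenite the ratios were larger. They were 41.0 ± 2.67 for MT-CYB, 23.1 ± 1.58 for MT-CO1, 27.7 ± 2.18 for MT-CO2, 32.4 ± 1.504 for MT-CO3, 35.2 ± 3.82 for MT-ATP6 and 16.4 ± 2.59 for MT-ATP8 in wild-type. Their median was 30.1 in wild-type, 26.9 in RQ, 21.2 in S181E and 18.2 in Y396E, beside 1.14 over 8700 genes in wild-type. From 0.0805% of those genes for MT-CYB to 0.759% for MT-ATP8 had a higher ratio. Most of this rise came from the divisor, since parental levels fell by more than wild-type levels changed. Between wild-type treatments the 6 changed by -0.30 to 0.32 on the log2 scale (median 0.16). The parental arsenite CPM was 0.320 of the parental control CPM for MT-CYB, 0.460 for MT-CO1, 0.621 for MT-CO2, 0.318 for MT-CO3, 0.292 for MT-ATP6 and 0.348 for MT-ATP8. These are single libraries of very different depth. The size of the ratios depended on the scaling. With total counts in place of TMM the wild-type median was 4.71 in control and 18.3 in arsenite, and with TMM over the 1532 nuclear genes whose mean level in mCherry libraries did not exceed the parental one (scaling on unenriched genes) it was 26.6 and 53.4. Those genes were picked by their own ratio to parental in the same libraries. The rise of the ratios under this scaling was therefore built into the choice and is no separate check.

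Among the other mitochondrial transcripts MT-ND6 and the rRNAs had lower ratios. MT-ND6, a complex I mRNA and the only mitochondrial mRNA made from the other strand, had a wild-type to parental ratio of 0.314 ± 0.0838 in control and of 2.66 ± 0.776 in arsenite. The 12S and 16S rRNAs MT-RNR1 and MT-RNR2 had ratios of 2.28 and 2.65 in control and of 3.60 and 5.35 in arsenite. The complex I mRNAs other than MT-ND6 had wild-type ratios from 9.54 for MT-ND5 to 17.6 for MT-ND1 in control, and all 7 had a median of 11.96 in control and 27.8 in arsenite, so that the 6 mRNAs were not set apart from them by this measure. Nuclear-encoded subunits of the same complexes had median wild-type to parental ratios of 0.688 for complex III, 0.791 for complex IV and 0.739 for complex V in control libraries, and of 0.507, 0.503 and 0.581 in arsenite. These medians cover tested subunits with at least 3 parental counts, which were 8, 8 and 11 in control and 9, 11 and 17 in arsenite. Leaving out subunits with fewer parental counts removes low parental levels, so the control medians may be too low. Within 1 library MT-CYB per kb was 76.5 times MT-ND6 in wild-type control libraries and 95.6 times in wild-type arsenite libraries, but 1.77 and 5.93 times in the parental ones, a ratio that no scaling between libraries can change.

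**Figure D2:**
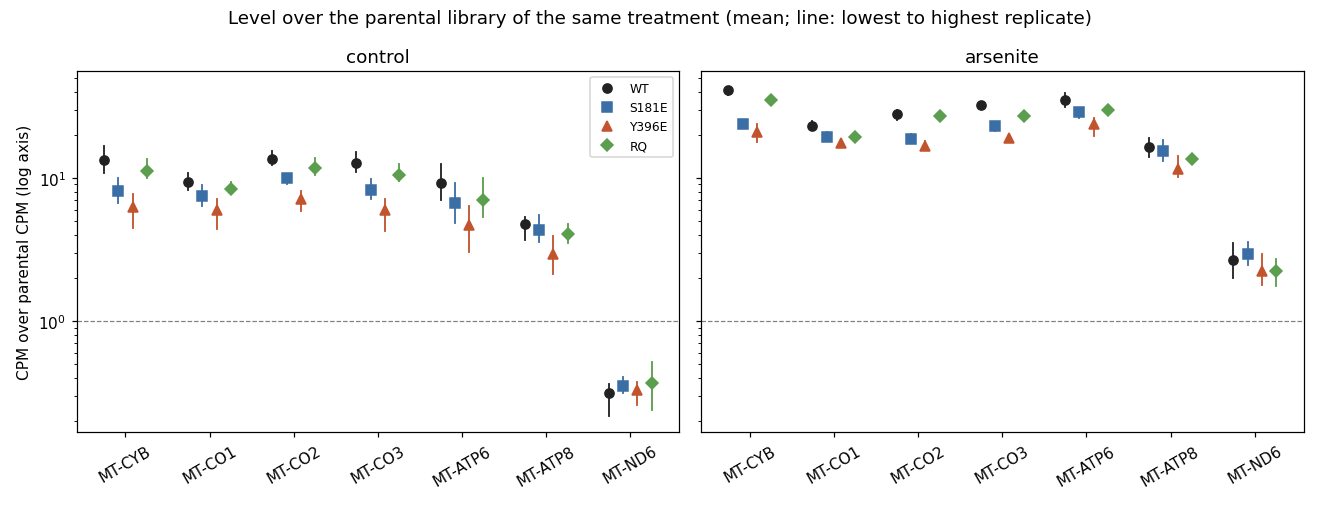
Mean CPM of each line divided by the parental CPM in that treatment, on a log axis, for the 6 mRNAs and for MT-ND6. Vertical lines run from the lowest to the highest replicate and the dashed line marks a ratio of 1. The 6 mRNAs lie above 1 in every line and treatment, while MT-ND6 lies below 1 in control libraries, at 0.314 in wild-type.

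The comparison of each mutant with wild-type sets side by side the RNA recovered from lines with different forms of IGF2BP1. Each form was carried by 1 sorted population, and the replicates were dishes of it. The tests therefore measure the spread between dishes, and the mutation cannot be told apart from other differences between the populations. All 6 mRNAs were lower with Y396E than with wild-type under control conditions. The calls come from edgeR's quasi-likelihood test over all 8734 genes, which needed both an adjusted p under 0.05 and a difference above 20%, and the 3 mutants share the same wild-type libraries. In Y396E, 6 of 6 were called lower, where 12.7% of all genes tested were called lower and 16.2% higher. Their log2 fold changes had a median of -0.95, beside 0.05 over all genes. MT-CO3 fell by 1.07 on the log2 scale (SE 0.17, adjusted p 4.61e-05), to 47.6% of wild-type, and MT-CYB fell by 1.06 (SE 0.19, adjusted p 0.000224), to 47.8%. MT-CO2 fell by 0.93 (SE 0.13, adjusted p 1.54e-05), MT-ATP6 by 0.97 (SE 0.26, adjusted p 0.00823), MT-CO1 by 0.62 (SE 0.16, adjusted p 0.00638) and MT-ATP8 by 0.66 (SE 0.20, adjusted p 0.0183). The libraries of Y396E and wild-type overlapped for MT-ATP8. Leaving out 1 library at a time left 4 to 6 called, a count given without the calls over all genes.

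In S181E control libraries 3 of 6 were called lower, where 8% of all genes were called lower and 12.8% higher. MT-CYB fell by 0.71 (SE 0.19, adjusted p 0.00995), MT-CO3 by 0.60 (SE 0.17, adjusted p 0.0127) and MT-CO2 by 0.45 (SE 0.13, adjusted p 0.0166) on the log2 scale. The differences of MT-ATP6, MT-CO1 and MT-ATP8 were -0.46, -0.30 and -0.12, with adjusted p of 0.232, 0.197 and 0.705. The median of the 6 was -0.45, beside 0.05 over all genes. The 3 calls rested on single libraries, since 0 of 6 were called without S181E control replicate 2 and 0 without wild-type control replicate 3. Calls over all genes without these libraries are not given, so a general loss of calls cannot be told apart.

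For RQ control libraries 0 of 6 were called by edgeR's test, and 0 had an unadjusted p under 0.05, where 2.83% of all genes were called lower and 3.51% higher. Their differences ranged from -0.39 for MT-ATP6 (SE 0.26) to -0.16 for MT-CO1 (SE 0.16), all 6 below 0, with adjusted p of 0.348 or more. DESeq2's Wald test also called 0.

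After arsenite 3 of 6 were called lower in Y396E, where 19.4% of all genes were called lower and 13.1% higher. MT-CYB fell by 0.95 (SE 0.19, adjusted p 0.000586), MT-CO3 by 0.74 (SE 0.17, adjusted p 0.00161) and MT-CO2 by 0.70 (SE 0.13, adjusted p 0.000321). The differences of MT-ATP6, MT-ATP8 and MT-CO1 were -0.54, -0.47 and -0.38, with adjusted p of 0.117, 0.0783 and 0.0776. The median of the 6 was -0.62, beside 0.01 over all genes. With scaling on unenriched genes, which moved the median of all genes to -0.29, 6 of 6 were called lower, and the calls over all genes shifted from 1692 lower and 1146 higher to 3301 and 214.

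In S181E arsenite libraries 2 of 6 were called lower, where 5.34% of all genes were called lower and 2.2% higher. They were MT-CYB, which fell by 0.79 (SE 0.19, adjusted p 0.00988), and MT-CO2, which fell by 0.57 (SE 0.13, adjusted p 0.00741). MT-CO3 differed by -0.50 (SE 0.17, adjusted p 0.0663) and was called with the replicate number as a block (adjusted p 0.00561), which paired these libraries and gave 3 of 6. The differences of MT-ATP6, MT-CO1 and MT-ATP8 were -0.29, -0.26 and -0.10. Without S181E arsenite replicate 2, 1 of 6 was called, a count given without the calls over all genes. For RQ 0 of 6 were called in arsenite by edgeR, 0 at an unadjusted p under 0.05 and 0 by DESeq2's Wald test, with differences from -0.26 for MT-ATP8 to -0.03 for MT-CO2. There 0.218% of all genes were called lower and 0.286% higher.

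These counts were also taken under other scalings. By total counts the median of all genes in control libraries was 0.22 in S181E, 0.32 in Y396E and 0.13 in RQ, with 379 genes called lower and 2432 higher, 485 lower and 3668 higher, and 167 lower and 764 higher, and 3, 5 and 0 of the 6 were called lower. In arsenite it was 0.17, 0.23 and 0.07, with 283 lower and 867 higher, 904 lower and 2749 higher, and 10 lower and 33 higher, and 2, 3 and 0 of the 6 were called lower. Scaling on unenriched genes gave 628 lower and 698 higher in S181E control libraries, where 2 of 6 were called lower, since MT-CO2 no longer passed (-0.48, adjusted p 0.0628). It gave 1702 lower and 571 higher in Y396E control libraries, where 6 of 6 were called lower, and 521 lower and 67 higher in S181E and 1 lower and 18 higher in RQ in arsenite, where 2 and 0 of the 6 were called. With all biotypes the calls were 840 lower and 1819 higher in Y396E and 209 lower and 455 higher in RQ control libraries, with 6 and 0 of the 6 called.

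**Figure D3:**
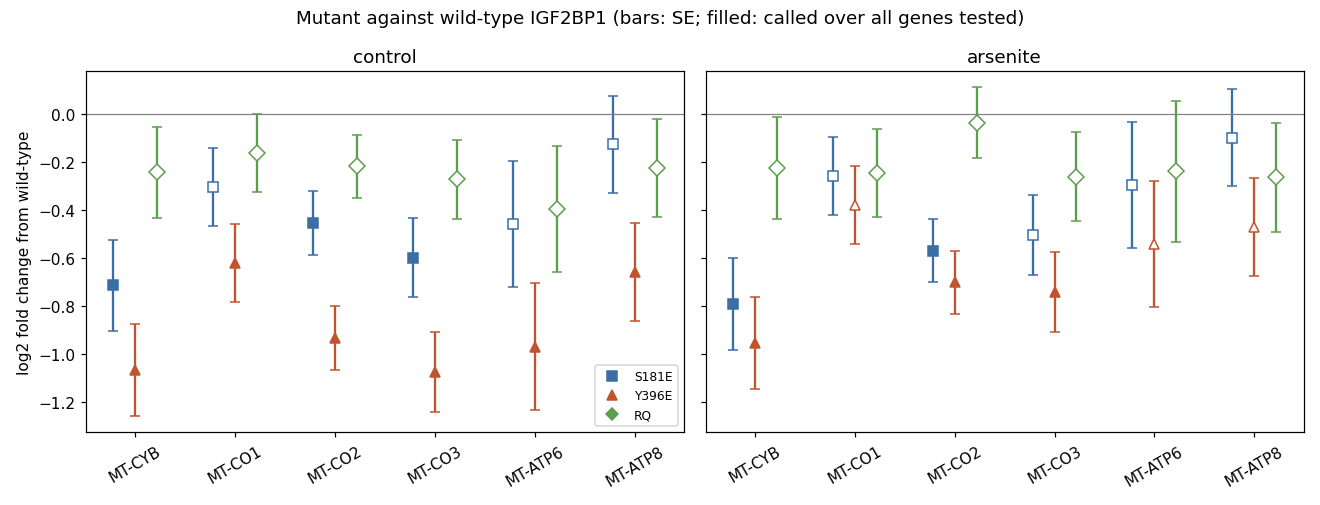
Log2 fold change of each mRNA between a mutant and wild-type IGF2BP1 in control libraries (left) and arsenite libraries (right), with bars of 1 SE from edgeR's fit over 23 libraries. Filled symbols are called over all 8734 genes tested. All values lie below 0, Y396E lies lowest for each of the 6 mRNAs in both treatments, and RQ has no filled symbol.

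The 6 mRNAs did not keep the same proportions in all lines. Ratios within a library do not depend on the scaling between libraries and are given as a description. MT-CYB per kb was 1.07 times MT-CO1 (0.994 to 1.16) in wild-type control libraries and 1.01 times in RQ, but 0.805 times (0.783 to 0.831) in S181E and 0.786 times (0.766 to 0.819) in Y396E. In arsenite it was 0.933 times in wild-type (0.904 to 0.988) and 0.945 in RQ, against 0.644 (0.630 to 0.652) in S181E and 0.623 (0.571 to 0.671) in Y396E. The parental libraries had 0.755 in control and 0.525 in arsenite, so that S181E and Y396E lay between wild-type and parental cells in both treatments. MT-CO3 over MT-CO1 went in the same order in control libraries, with 1.44 in wild-type, 1.33 in RQ, 1.18 in S181E and 1.05 in Y396E, beside 1.07 in parental cells. It was 1.04, 1.03, 0.874 and 0.807 in arsenite, beside 0.740. MT-CO2 over MT-CO1 was 0.777 in wild-type, 0.743 in RQ, 0.710 in S181E and 0.635 in Y396E control libraries, with 0.530 in parental cells, and 0.858, 0.992, 0.691 and 0.686 in arsenite, with 0.715. MT-CO1 itself took 32.0% of the counts of the 6 in wild-type and 38.3% in Y396E control libraries, and 34.9 and 41.5% in arsenite. The ratio of MT-ATP6 to MT-ATP8 per kb ranged from 7.06 to 12.3 over the mCherry libraries, against 5.21 and 4.37 in parental cells.

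**Figure D4:**
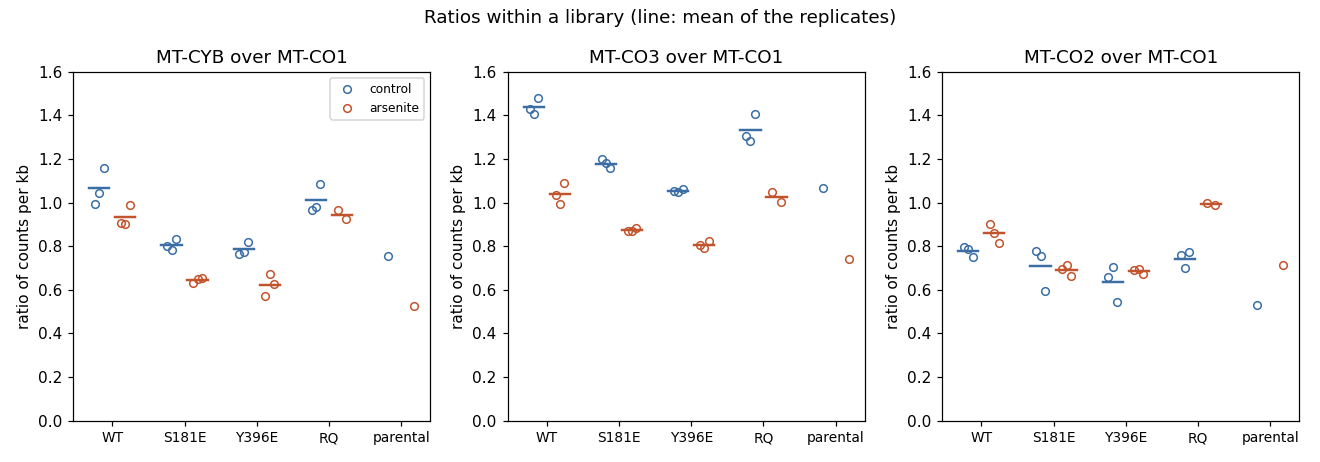
Ratio of counts per kb within a library for MT-CYB, MT-CO3 and MT-CO2 over MT-CO1, by line and treatment, with axes from 0. Open points are libraries and lines are means. For MT-CYB over MT-CO1 the S181E and Y396E libraries, at 0.571 to 0.831, lie below all wild-type and RQ libraries, at 0.904 to 1.16.

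Arsenite within a line asks how stress alters the RNA recovered, and most of the 6 mRNAs did not pass the test. In wild-type, where 31.8% of all genes were called lower and 35.4% higher, 1 of 6 was called: MT-CO2 rose by 0.32 on the log2 scale (SE 0.13, adjusted p 0.0325). MT-CO3 differed by -0.30 (SE 0.16, adjusted p 0.114) and MT-CYB by -0.03 (SE 0.19). In Y396E, where 33.8% were called lower and 31.3% higher, 2 of 6 were called higher, MT-CO2 by 0.56 (SE 0.13, adjusted p 0.000741) and MT-CO1 by 0.42 (SE 0.16, adjusted p 0.0271). MT-ATP6 and MT-ATP8 had differences of 0.57 and 0.45 there, with adjusted p of 0.0589 and 0.0563. In RQ, where 32.3% were called lower and 32.4% higher, MT-CO2 rose by 0.51 (SE 0.15, adjusted p 0.00397). In S181E 0 of 6 were called by edgeR, 0 at an unadjusted p under 0.05 and 0 by DESeq2's Wald test, with 34.6% of all genes called lower and 33.3% higher, and MT-CO2 differed by 0.21 (SE 0.13, adjusted p 0.161).

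These directions depended on the scaling. With scaling on unenriched genes, the median of all genes in the 4 lines moved to between -0.26 (wild-type) and -0.44 (Y396E), and the calls over all genes in wild-type shifted from 2780 lower and 3095 higher to 3825 and 2061. In S181E they shifted from 3021 and 2905 to 4295 and 1746, in Y396E from 2952 and 2736 to 4554 and 1414, and in RQ from 2825 and 2826 to 3856 and 1859. Under it MT-CO2 was not called in any line, at 0.02 in wild-type, and MT-CO3 was called lower in wild-type (-0.60, adjusted p 0.0136), S181E (-0.58, adjusted p 0.0166) and RQ (-0.62, adjusted p 0.0256). The wild-type call of MT-CO2 was also lost without wild-type control replicate 1 or 2 or without wild-type arsenite replicate 1 or 2. What did not depend on scaling was the difference between mRNAs within a library: MT-CO3 over MT-CO1 per kb was lower in every arsenite library of a line than in each of its control libraries, at 1.04 against 1.44 in wild-type. The parental libraries, 1 per treatment, went the same way, at 0.740 against 1.07. This fall was thus not particular to cells with the fusion protein.

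**Figure D5:**
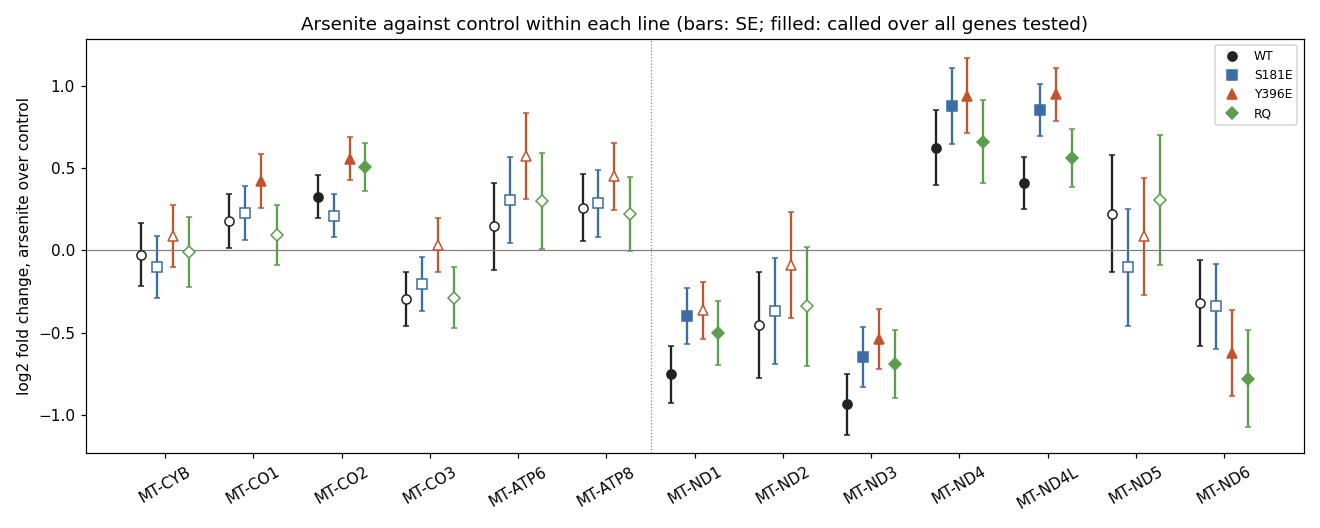
Log2 fold change between arsenite and control libraries within each line, with bars of 1 SE, for the 6 mRNAs (left of the dotted line) and the 7 complex I mRNAs (right). Filled symbols are called over all genes tested. MT-CO2 is filled in wild-type, Y396E and RQ, and MT-CO1 in Y396E only among the 4 lines, while MT-ND3 is filled below 0 and MT-ND4 and MT-ND4L above 0 in all 4 lines.

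The difference between a mutant and wild-type was not shown to depend on arsenite. The interaction of mutant and treatment was called for 0 of 6 mRNAs by edgeR in each mutant, 0 had an unadjusted p under 0.05 and DESeq2's Wald test called 0, where 0.389% of all genes were called for S181E, 2.85% for Y396E and 0.0687% for RQ. The smallest adjusted p was 0.835 for S181E, 0.494 for Y396E and 0.815 for RQ. The Y396E values ranged from 0.11 for MT-CYB to 0.43 for MT-ATP6 (SE 0.37), all above 0.

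The 7 mitochondrial mRNAs of complex I, NADH dehydrogenase, held calls in the same comparisons, which share libraries with those of the 6. Over all genes tested, 12.7% were called lower in Y396E, 8% in S181E and 2.83% in RQ control libraries. In arsenite these shares were 19.4, 5.34 and 0.218%. In Y396E control libraries 4 of 7 were called lower, with MT-ND1 at -1.34 (adjusted p 6.14e-06) and MT-ND3 at -1.24 (adjusted p 2.73e-05), and in S181E 3 of 7. In arsenite 3 of 7 were called lower in Y396E and 2 of 7 in S181E. In RQ 1 of 7 was called, MT-ND1 at -0.63 (adjusted p 0.033) in control libraries, and 0 in arsenite. None was called higher in a mutant. MT-ND6 differed from wild-type by 0.08 in Y396E control libraries (adjusted p 0.844). Arsenite against control gave calls in both directions in every line, with MT-ND3 at -0.94 and MT-ND4 at 0.62 in wild-type, where 31.8% of all genes were called lower and 35.4% higher.

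Nuclear-encoded subunits of the same complexes were called in both directions in the mutants. Over all genes tested, 8% were called lower and 12.8% higher in S181E, 12.7 and 16.2% in Y396E and 2.83 and 3.51% in RQ control libraries. In arsenite these shares were 5.34 and 2.2%, 19.4 and 13.1%, and 0.218 and 0.286%. Of 9 complex III subunits tested, 1 was called lower in S181E and 1 in Y396E control libraries, in both UQCRB, at -1.001 and -1.20, and 4 were called higher and 1 lower in Y396E in arsenite. Of 11 complex IV subunits 1 was called, COX7B, at 0.66 and 0.59 in Y396E control and arsenite libraries. Of 17 of 18 complex V subunits that passed the filter, 1 was called lower and 1 higher in S181E, 1 lower and 4 higher in Y396E and 0 lower and 2 higher in RQ control libraries, and 4 higher in Y396E in arsenite. ATP5F1B, the catalytic beta subunit, stood at 0.70 and 0.56 in Y396E control and arsenite libraries. For the other comparisons of a mutant with wild-type 0 subunits of these lists were called.

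Of 20 of 31 assembly factors of the 3 complexes that passed the filter, 2 were called lower and 1 higher in Y396E control libraries, with TMEM70, a factor for complex V, at -0.81, and 6 lower and 2 higher in Y396E in arsenite, with LYRM7, a chaperone of the Rieske protein, at -0.81. S181E and RQ had 1 called higher each in control libraries and 0 in arsenite. Beside these counts, 12.7% of all genes were called lower and 16.2% higher in Y396E control libraries, and 19.4 and 13.1% in arsenite. In control libraries 12.8% were called higher in S181E and 3.51% in RQ. Of 19 of 24 factors of mitochondrial transcription and mRNA processing, 1 was called lower and 5 higher in Y396E control libraries, and 1 lower and 4 higher in arsenite. MTERF3, a repressor of mitochondrial transcription, stood at -0.55 and -0.68, and TBRG4, a FASTK protein of mRNA processing, at 0.69 and 0.62. S181E had 1 called, GRSF1, an RNA granule protein, at 0.45 in control libraries, and RQ 0. After arsenite in wild-type 12 of the 19 were called higher and 2 lower, with ELAC2, which cuts tRNA 3′ ends, at 1.58 and LRPPRC, which stabilises mitochondrial mRNAs, at 1.57, while its partner SLIRP stood at -0.83 and the transcription factor TFAM at -0.62. In the same comparison 4 of 9 complex III subunits were called lower and 3 higher, 4 of 11 complex IV subunits lower and 0 higher, 6 of 17 complex V subunits lower and 5 higher, and 6 of 20 assembly factors lower and 2 higher. Over all genes 31.8% were called lower and 35.4% higher there, and counts near these shares do not set a list apart.

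Over the 23 mCherry libraries the 6 mRNAs varied together, as a description over libraries that share lines, treatments and scaling. Pearson's r of log2 CPM ranged from 0.614 for MT-CO3 and MT-ATP8 to 0.956 for MT-CO1 and MT-ATP6, with 0.955 for MT-CYB and MT-CO3. Among the complex I mRNAs, the mean of the 6 had r of 0.883 with MT-ND4, 0.836 with MT-ND5 and 0.685 with MT-ND1. It was 0.679 with MT-ND2, 0.617 with MT-ND4L, 0.465 with MT-ND3 and 0.0954 with MT-ND6. The 5 nuclear-encoded genes with the most similar pattern were SERPING1 (r 0.894), SUPT3H (0.868), AKAP12 (0.866), SECISBP2L (0.862) and TAF2 (0.861). Mitochondrial rRNA took 22.2 to 38.2% of all counts in the mCherry libraries and 32.7 and 11.8% in the parental control and arsenite libraries, and its part in the results was not tested.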

How the data were processed

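RIP-seq libraries of 25 samples were analysed. Per the labels and the study's methods, the authors aligned 100-base single-end reads to hg38 with STAR 2.7.11b and counted them with featureCounts (Subread 2.0.6) on exons of GENCODE 46. Per the file headers, counting used strand and left out reads that map to several places or touch several genes. The deposited values are raw counts for 63086 genes. Symbols came from GENCODE 44 by identifier (61547 matched with version, 62541 with any version, 545 not). Replicates were dishes plated and grown separately.

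Protein-coding counts were scaled by TMM in edgeR 4.0.16 (R 4.3.3), and genes above 10 CPM in 11.5 or more of the 23 mCherry libraries entered the quasi-likelihood test, in 1 model with 8 groups and no covariates, adjusted by Benjamini-Hochberg over all 8734 genes. Printed CPM used TMM over all 25 libraries. The parental libraries entered no test. The 6 mRNAs and the gene lists were chosen with earlier results of these data known. From each list at most the 2 lowest and the 2 highest called genes were named, together with the 5 nuclear-encoded genes whose log2 CPM correlated best with the mean of the 6. Sequences were read from the reference hg38 with samtools 1.23.1 and searched with blastn 2.17.0. The tests were checked on simulated data. Of changes of 0.5 on the log2 scale they recovered 43.9% for Y396E and 25% for RQ in arsenite. For arsenite in wild-type they recovered 27.6%, and for the Y396E interaction 3.23%. At a change of 1 the shares were 94.3, 89.2, 92.2 and 63.6% in that order. Fewer genes were changed in the simulations than were called in the data for Y396E in arsenite and for arsenite in wild-type. Adjusted p values depend on that number, so these shares are a rough guide only. RQ control libraries and the S181E and RQ interactions were not simulated. A lack of calls among small differences, as for RQ and the interactions, does not show that they are absent.

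Replicate numbers are shared between groups. Deviations of same-numbered libraries correlated over 0.1 in every pair for S181E and wild-type in arsenite (r 0.29 to 0.40), and in no other comparison with 3 pairs. The pairing comes from this correlation, since no label names a shared batch. Alternatives were DESeq2 1.42.0 size factors, total counts, scaling on nuclear genes or on 1532 unenriched nuclear genes (mean mCherry CPM not above the parental one), all biotypes (7753 genes), filterByExpr (13515 genes), the adjusted p alone, DESeq2's Wald test, only the groups compared, the replicate block and each library left out. Adding the nuclear copies was chosen after seeing the data.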

Additional observations from a re-analysis of the deposited data

How the results depend on the processing

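Of 1416 values of single mRNAs under the alternatives, 1346 kept their direction and their side of the threshold, 29 were no longer called, 40 were newly called and 1 reversed, and of 606 differences from wild-type 7 changed sign, none of them called. When a model held just the groups it compares, the count of mRNAs called was 1 for S181E control, 4 for S181E arsenite, 6 for Y396E arsenite and 1 for RQ arsenite, and over all genes 230 were then called lower and 171 higher against 699 and 1119, 1031 and 851 against 466 and 192, 2413 and 2016 against 1692 and 1146, and 548 and 474 against 19 and 25 in that order. Such models called 684 genes lower and 540 higher for Y396E control, against 1112 and 1411, and 3 and 4 for RQ control, against 247 and 307, with 5 and 0 of the 6 mRNAs. Over all genes the block gave 484 lower and 597 higher for RQ control, 751 and 354 for S181E arsenite and 92 and 62 for RQ arsenite, where DESeq2's Wald test gave 76 and 40. For RQ control, scaling on unenriched genes gave 115 and 100. For the interactions, with 24 lower and 10 higher in S181E, 210 and 39 in Y396E and 1 and 5 in RQ, the block gave 207 and 63, 639 and 171, and 22 and 21, DESeq2's Wald test 75 and 63, 251 and 132, and 24 and 23, models of just the groups compared 0 in S181E and RQ, total counts 538 and 35 in Y396E, all biotypes 452 and 38 in Y396E and 6 and 5 in RQ, and unenriched genes 2 and 1 in S181E and 0 and 3 in RQ, with 0 of the 6 mRNAs in each. With scaling on unenriched genes the count of mRNAs called was 2 for S181E control, 6 for Y396E in arsenite, and for arsenite against control 1 lower in wild-type, 1 lower in S181E, 0 in Y396E and 1 lower in RQ, where MT-CO1 in Y396E reversed to -0.0098. For arsenite against control DESeq2 size factors gave 0 in wild-type (2936 of all genes lower and 2943 higher) and DESeq2's Wald test 2, 1 lower and 1 higher (2985 and 2996), all biotypes gave 1 higher in S181E (2430 and 2963) and 4 higher in Y396E (2509 and 2700), and total counts 4 higher in Y396E (2974 and 2657). With the replicate block the counts were 4 lower for S181E control, with MT-ATP6 at an adjusted p of 0.0484 (970 of all genes lower and 1432 higher), 6 lower for Y396E in arsenite (1950 and 1552) and, for arsenite against control, 1 lower and 1 higher in wild-type, 2 in all (2892 and 3228), 4 higher in Y396E (3078 and 2884) and 2 higher in RQ (2977 and 2995). The block changed the side of the threshold for 9 mRNA values in all, each newly called. Leaving out 1 library gave 0 to 3 for S181E control, 1 to 2 for S181E arsenite, 4 to 6 for Y396E control, 3 to 4 for Y396E arsenite, and for arsenite against control 0 to 1 in wild-type, 0 to 2 in S181E (2 without S181E control replicate 3), 1 to 4 in Y396E (1 without Y396E control or arsenite replicate 2, 4 without Y396E control replicate 3 or arsenite replicate 1) and 1 to 1 in RQ. Calls over all genes with 1 library left out are not given. Changes particular to the 6 and changes over all genes therefore cannot be told apart in these counts. The median ratio to parental in wild-type control libraries was 4.71 with total counts and 26.6 with unenriched genes, and in arsenite 25.6 with DESeq2 size factors, 18.3 with total counts, 53.4 with unenriched genes and 32.9 with all biotypes. The rise with unenriched genes was built into their choice by the ratio to parental. The cause of these changes was not tested. The 1 parental library per treatment, and the 1238013 counts of the control one, limit every ratio to parental.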
